A study of Mus musculus with 12 samples.

Results

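The genes of cholesterol synthesis, of its regulation and of cholesterol transport were followed in the RNA of purified brain myelin from P18 to 24 months of age. The group was chosen by gene name, as the rows of the deposited table that carry 34 listed symbols, and it holds 34 of the 21937 genes in that table. Of these, 17 encode enzymes of the pathway, 7 encode its regulators and 10 take part in the uptake, export, storage, turnover or movement of cholesterol between membranes. The symbols were listed without use of the read counts, but with earlier results of these data known. The RNA came from the light-weight membrane fraction enriched for myelin of wild-type male c57Bl6/N mice, with 3 libraries at each of P18, P75, 6 months and 24 months and 12 in all. No allele, drug or other treatment set the ages apart. The 6-month libraries came from 3 individual brains, and for the other ages the labels number the libraries without saying whether brains were pooled, so p-values measure the spread between these libraries. Values are normalized read counts, that is, reads per gene divided by a size factor of the library, and they are not divided by transcript length.

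Myelin, the multilayered sheath made by oligodendrocytes, is unusually rich in cholesterol. Lipoproteins of the blood hardly reach the adult brain, so its cholesterol is made locally, from acetyl-CoA through mevalonate and squalene to lanosterol and on to cholesterol. When membranes are poor in sterol, SCAP escorts the SREBP transcription factors (genes Srebf1 and Srebf2) from the endoplasmic reticulum to the Golgi apparatus, where they are cleaved, and INSIG proteins hold SCAP back when sterol is plentiful. The liver X receptors (Nr1h2 and Nr1h3) respond to oxysterols and turn on export genes such as Abca1, Abcg1 and Apoe.

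Promoters are shown for 4 genes whose transcripts changed by more than 2-fold between ages, the enzymes Mvd, Lss and Idi1, which fell, and the transcription factor gene Srebf2, which rose, because SREBP targets are known to carry short recognition motifs close to their start. All 4 hold the letters CCAAT. Acat2 and Scap also changed by more than 2-fold, and their promoters do not hold these letters. Srebf1, Insig2, Soat1 and Cyp46a1 changed by more than 2-fold as well, hold these letters in all or some of their promoters, and are not shown. No promoter was found for Fdps, Abcg1 and Npc1, which also changed by more than 2-fold. RefSeq promoters (GRCm38.p6, 250 bases before to 50 bases after the annotated start) were found for 28 of the 34 genes and were searched on both strands for CCAAT, the letters recognized by NF-Y, and for TCACNCCAC, the core of a sterol regulatory element. The sequences are written 5′ to 3′ on the strand of the gene, and capitals mark CCAAT or, for a match on the opposite strand, ATTGG.
Lss (chr10:76531355-76531654, plus strand): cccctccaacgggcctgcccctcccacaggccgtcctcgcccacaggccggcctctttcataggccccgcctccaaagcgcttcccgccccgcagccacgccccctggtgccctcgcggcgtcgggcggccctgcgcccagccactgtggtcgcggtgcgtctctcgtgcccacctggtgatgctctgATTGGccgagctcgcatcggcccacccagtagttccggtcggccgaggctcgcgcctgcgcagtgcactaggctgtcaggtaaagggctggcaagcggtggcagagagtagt
Mvd (chr8:122443373-122443672, minus strand): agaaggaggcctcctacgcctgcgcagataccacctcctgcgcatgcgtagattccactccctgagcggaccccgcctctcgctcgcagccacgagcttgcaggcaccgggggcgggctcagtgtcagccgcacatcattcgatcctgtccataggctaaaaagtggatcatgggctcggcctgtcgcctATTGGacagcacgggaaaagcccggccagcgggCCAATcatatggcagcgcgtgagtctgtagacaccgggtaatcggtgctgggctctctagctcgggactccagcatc
Idi1 (chr13:8885356-8885655, plus strand): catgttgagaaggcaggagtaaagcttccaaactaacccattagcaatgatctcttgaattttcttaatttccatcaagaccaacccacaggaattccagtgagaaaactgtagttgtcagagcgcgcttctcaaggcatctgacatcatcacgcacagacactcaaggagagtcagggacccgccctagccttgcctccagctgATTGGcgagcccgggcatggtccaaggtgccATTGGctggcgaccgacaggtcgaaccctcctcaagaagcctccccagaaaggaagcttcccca
Srebf2 (chr15:82147019-82147318, plus strand): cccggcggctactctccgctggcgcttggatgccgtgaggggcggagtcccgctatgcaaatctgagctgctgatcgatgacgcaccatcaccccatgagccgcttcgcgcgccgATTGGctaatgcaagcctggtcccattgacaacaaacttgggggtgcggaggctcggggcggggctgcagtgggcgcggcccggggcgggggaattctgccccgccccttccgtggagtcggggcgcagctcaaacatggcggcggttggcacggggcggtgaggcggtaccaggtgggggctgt

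The pentamer began 62 bases before the start in Lss, 60 and 27 bases before it in Mvd, 45 and 14 bases before it in Idi1 and 135 bases before it in Srebf2. It was present in the promoters of 13 of 14 synthesis genes, of 4 of 7 regulators and of 4 of 7 transport genes. Over all genes of the RefSeq table, 41.1% had it in at least 1 promoter. The sterol element letters were found only in Hmgcs1 among the 28 genes with a promoter, and in 1.44% of all genes. The matches of the 2 motifs in Hmgcs1 did not overlap. These are matches of letters in a window and not binding sites.

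The libraries held 20299052 to 27214385 reads on genes. Mbp, which encodes myelin basic protein, took 9.47% to 20.8% of the reads at P18 and 4.76% to 8.48% at the later ages. At P18 its share was 15.1% in replicate 1, 20.8% in replicate 2 and 9.47% in replicate 3. P18 replicate 3 stood apart from its group for the synthesis genes: it was the lowest of the 3 P18 libraries for 14 of 16 measured enzymes, while it was the lowest for 38.4% of all genes tested. Calls of single genes that rest on this library are given with and without it. Levels of cell type markers, and differences from them, are given with all libraries only. Defining markers of oligodendrocytes were detected in all libraries, and so were those of neurons, astrocytes, microglia, endothelium and choroid plexus, with no listed marker at 0 throughout. In such bulk RNA, fewer cells of a type and less RNA per cell cannot be told apart.

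Of the 34 genes, 33 passed the filter of a mean of at least 10 and were tested. Hmgcs1, the synthase of hydroxymethylglutaryl-CoA, was listed at 0 in all 12 libraries. The annotation read here for positions holds no gene of that name, so its 0 may stand for a gene that was not counted and is not read as a level. Genes were called changed at an adjusted p below 0.1 (limma, Benjamini-Hochberg over the 14634 genes tested), and log2 changes are on the log2(normalized read count + 1) scale. Many genes changed with age, and the counts of members are therefore set beside the percentage of all tested genes that were called.

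**Figure D1:**
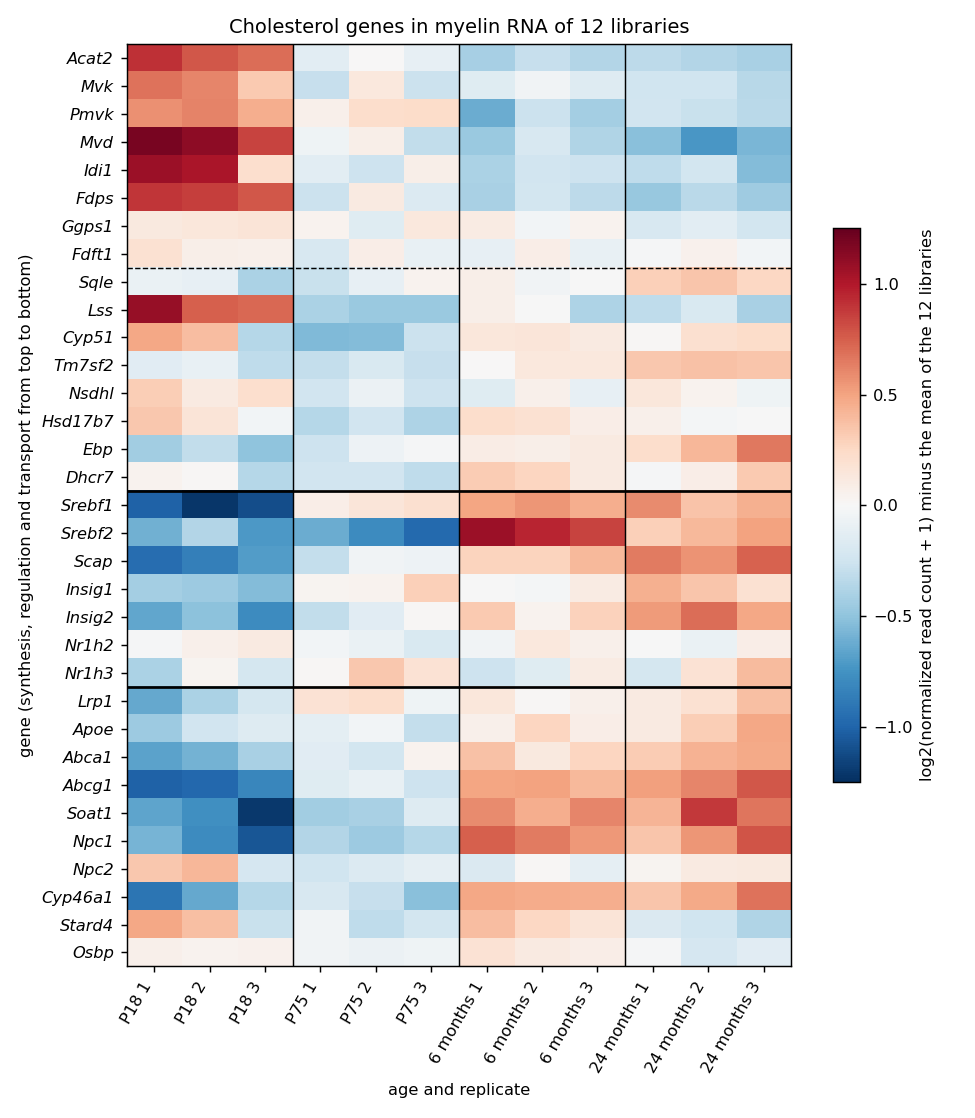
Levels of the 33 measured genes (rows, in the order synthesis, regulation and transport, with a dashed line above Sqle) in the 12 libraries (columns), as log2(normalized read count + 1) minus the mean of the gene over the libraries. Mvd, Idi1, Fdps, Acat2 and Lss were highest at P18, whereas Srebf2, Npc1 and Soat1 were higher at 6 and 24 months than at P18 and P75.

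Between P18 and P75, 11 of the 16 measured synthesis enzymes changed, 10 of them downwards. Over all genes, 48.8% were called in this comparison, 25.9% higher and 22.9% lower at P75. The median log2 change of the enzymes was -0.44, against 0.015 for all genes. Lss, Mvd, Fdps, Idi1 and Acat2 fell the most, to between 0.41 and 0.55 of their P18 level. Ebp was the only enzyme called higher at P75.

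Mvd, mevalonate diphosphate decarboxylase, lies on chromosome 8 at 124957496 to 124967322 on the minus strand, in the build NCBIM37 (mm9) used for the deposited counts and for the positions that follow. Its normalized read counts were 1123, 1069 and 885 at P18, 474, 516 and 396 at P75, then 357, 427 and 379 at 6 months and 342, 296 and 330 at 24 months. Every P18 library lay above every later library, and the P75 and 6-month libraries overlapped. The log2 change was -1.15 ± 0.12 (SE, adjusted p = 3.2e-06) from P18 to P75 and -1.66 (adjusted p = 6.9e-09) from P18 to 24 months. The change from P75 to 6 months was -0.25 (adjusted p = 0.089), and the call was lost in 4 cases, with a log2 change of -0.16 without P75 replicate 2, -0.19 without 6-month replicate 1 and -0.23 without P75 replicate 1 or 6-month replicate 3.

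Lss, lanosterol synthase, closes the squalene chain into the first sterol ring system and lies on chromosome 10 at 75994333 to 76019883 (plus strand). In the P18 libraries the normalized read count was 480, 380 and 371, followed by 172, 164 and 163 at P75, then 238, 225 and 173 at 6 months and 181, 198 and 170 at 24 months. The P18 libraries were apart from all others. It fell by 1.29 on the log2 scale from P18 to P75 (adjusted p = 3.4e-06), the largest change of any enzyme in this comparison. At 6 months it was 0.34 higher than at P75 (adjusted p = 0.044), a call that was lost without 6-month replicate 1 (0.25) or 2 (0.29).

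Fdps, farnesyl diphosphate synthase, lies on chromosome 3 at 88897514 to 88905881 (minus strand). The 3 P18 libraries had normalized read counts of 4359, 4272 and 4003, those of P75 had 1939, 2523 and 2085, those of 6 months 1763, 1999 and 1865 and those of 24 months 1684, 1853 and 1725. The P18 libraries did not overlap with any later library, and the 3 later ages overlapped in turn. It fell by 0.96 to P75 (adjusted p = 2.5e-06) and by 1.26 to 24 months (adjusted p = 1.3e-08). The smaller changes after P75 leaned on P75 replicate 2, without which the log2 change was -0.10 to 6 months (main value -0.21) and -0.20 to 24 months (main value -0.31). The call from P75 to 6 months was lost without that library, without 6-month replicate 1 (-0.17) or without 6-month replicate 3 (-0.21). Fdps has 5 further places in the genome with at least 90% identity over most of its transcript, and reads from such copies could have been lost or shared in counting.

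Acat2, the cytosolic thiolase that joins acetyl groups at the entry of the pathway, lies on chromosome 17 at 13135756 to 13153613 (minus strand). Normalized read counts ran from 2167, 1975 and 1864 at P18 through 1049, 1153 and 1072 at P75, then 860, 943 and 893 at 6 months, to 915, 893 and 867 at 24 months. P18, P75 and 6 months followed each other downwards without overlap, while the 6-month and 24-month libraries overlapped. The log2 change was -0.87 (adjusted p = 1.2e-06) from P18 to P75, -0.28 (adjusted p = 0.0082) from P75 to 6 months and -1.16 (adjusted p = 5.2e-09) from P18 to 24 months.

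Idi1, the isomerase that readies isoprene units for joining, lies on chromosome 13 at 8884852 to 8891641 (plus strand). Its normalized read counts were 4275, 4131 and 2363 at P18, 1859, 1700 and 2145 at P75, then 1549, 1731 and 1704 at 6 months and 1639, 1733 and 1402 at 24 months. P18 replicate 3 lay far below the other P18 libraries but still above all later libraries. Idi1 fell by 0.87 to P75 (adjusted p = 0.00069) and by 1.13 to 24 months (adjusted p = 2.2e-05). Without P18 replicate 3, the log2 change to P75 was -1.15, and Idi1 was called lower than at P75 both at 6 months (-0.19, adjusted p = 0.094) and at 24 months (-0.26, adjusted p = 0.031). Idi1 has 2 copies with up to 99.3% identity elsewhere in the genome, so its counts share the uncertainty of Fdps.

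**Figure D2:**
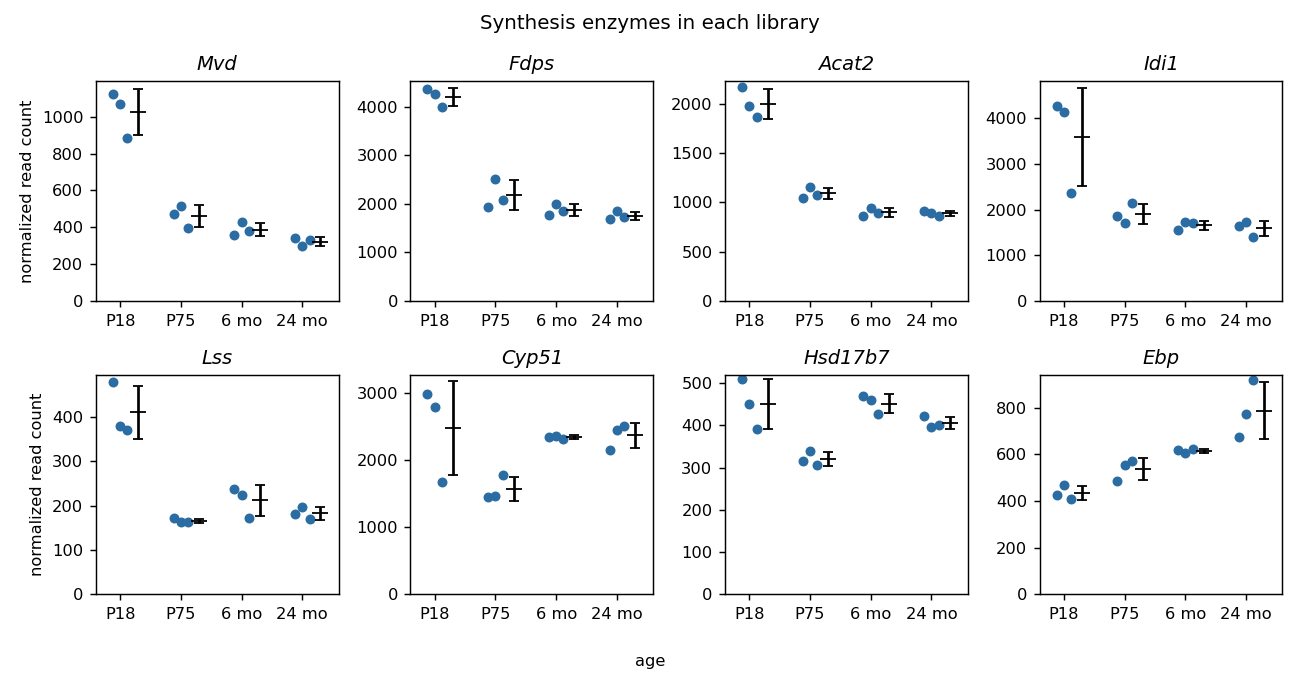
Normalized read counts (y axis, from 0) of 8 synthesis enzymes by age (x axis), with a point for each of 3 libraries and, beside them, the mean with its SD. Mvd, Fdps, Acat2, Idi1 and Lss did not overlap between P18 and P75, Cyp51 and Hsd17b7 were lowest at P75, and Ebp was highest at 24 months.

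The other enzymes that act before squalene epoxidase were Mvk and Pmvk, the kinases that phosphorylate mevalonate, Ggps1, which diverts isoprenoid units to geranylgeranyl diphosphate, and Fdft1, squalene synthase. Mvk averaged 585 ± 74.1 (SD, n = 3) at P18, 365 ± 61.8 at P75, then 368 ± 17.3 at 6 months and 329 ± 12.8 at 24 months, and it fell from P18 to P75 (-0.68, adjusted p = 0.00032). Pmvk fell at both steps, by 0.38 to P75 (adjusted p = 0.0037) and by 0.61 from there to 6 months (adjusted p = 4.7e-05), which is the largest fall of any enzyme between those ages. Its levels were 2310 ± 134, 1778 ± 112, 1167 ± 139 and 1295 ± 41.7 in order of age. Ggps1 was called lower at 24 months than at P18 (-0.33, adjusted p = 0.0051). Its calls between 24 months and P75 (-0.19) or 6 months (-0.22) were each lost when any 1 of 9 libraries was left out, over ranges of -0.22 to -0.13 and -0.26 to -0.19. Fdft1 averaged between 2583 and 2920 at all ages and was called in no comparison in the limma fit of all libraries. From P18 to P75 its log2 change was -0.18, and it passed the threshold without P18 replicate 3 (-0.20) or P75 replicate 2 (-0.26) and in edgeR's quasi-likelihood test (-0.19, adjusted p = 0.096). Of its exon bases, 26.9% are shared with Ctsb on the opposite strand, and a further place in the genome is 97.4% identical to its transcript over 56.3% of the length, so its counts are uncertain.

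Of the 8 enzymes from squalene epoxidase onwards, 7 were higher at 24 months than at P75, as were 28.8% of all genes. Sqle, squalene epoxidase, averaged 1740 ± 205 at P18, 1845 ± 206 at P75, then 1993 ± 82.0 at 6 months and 2444 ± 78.7 at 24 months, and it was higher at 24 months than at P18 by 0.50 (adjusted p = 0.00035). Cyp51, which removes a methyl group from lanosterol, was lowest at P75. Its counts were 2979, 2790 and 1672 at P18, 1459, 1467 and 1777 at P75, then 2349, 2367 and 2309 at 6 months and 2159, 2450 and 2506 at 24 months. P18 replicate 3 lay within the P75 range while the other P18 libraries lay above all libraries of the later ages. Cyp51 fell by 0.62 from P18 to P75 (adjusted p = 0.0049) and rose by 0.58 from P75 to 6 months (adjusted p = 0.0052). Between P18 and 24 months its log2 change was -0.02, but it was -0.28 (adjusted p = 0.016) without P18 replicate 3.

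Hsd17b7, a sterol ketone reductase, showed the same low point at P75, with a mean of 450 ± 59.0 at P18, 321 ± 17.3 at P75, then 452 ± 22.6 at 6 months and 406 ± 14.1 at 24 months. It fell by 0.48 from P18 to P75 (adjusted p = 0.0014) and rose by 0.49 from P75 to 6 months (adjusted p = 0.00077). The log2 change from P18 to 24 months was -0.14, and it was called without P18 replicate 3 (-0.24, adjusted p = 0.046) or with quantile normalization (-0.23, adjusted p = 0.068). Dhcr7, the reductase that yields cholesterol itself, averaged 575 ± 84.7, 506 ± 16.1, 717 ± 51.3 and 671 ± 83.2 in order of age and rose by 0.50 from P75 to 6 months (adjusted p = 0.0017). From P18 to 24 months its log2 change was 0.23, which dropped to 0.10 without P18 replicate 3 and to 0.13 without 24-month replicate 3, and this call was lost when any 1 of 7 libraries was left out. From P18 to P75 it was not called with all libraries, and its log2 change was -0.30 (adjusted p = 0.026) without P18 replicate 3.

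Ebp, a sterol isomerase, and Tm7sf2, a sterol reductase, ended above their P18 level. Ebp averaged 434 ± 30.3 at P18, 537 ± 46.0 at P75, then 617 ± 8.57 at 6 months and 788 ± 122 at 24 months and was 0.85 higher at 24 months than at P18 (adjusted p = 4.2e-06), with no overlap. Its call from P18 to P75 (0.30) was lost without P75 replicate 3 (0.26), its log2 change from P75 to 6 months (0.20) passed without 24-month replicate 1 or 3 or with only these 2 ages in the fit, and that from 6 to 24 months was lost without 24-month replicate 3 (0.23 in place of 0.34) or 6-month replicate 2 (0.33). Tm7sf2 averaged 296 ± 24.0, 281 ± 11.6, 355 ± 17.9 and 428 ± 4.33 in order of age and was 0.53 higher at 24 months than at P18 (adjusted p = 0.00012). Of its exon bases, 15.3% are shared with 1110014N23Rik on the same strand. Nsdhl, which takes part in removing methyl groups from sterols, fell from 855 ± 56.9 at P18 to 646 ± 46.1 at P75 (-0.40, adjusted p = 0.0024). It was 0.24 higher at 24 months than at P75, a call that was lost without P75 replicate 1 (0.21) or 3 (0.20) or 24-month replicate 1 (0.19) or 2 (0.24, adjusted p = 0.1). Its log2 change from P18 to 24 months was -0.17, and it passed the threshold without P18 replicate 2 or 24-month replicate 1 (-0.22 in each case).

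Grouped by place in the pathway, a division made after the values were seen and therefore given without a test, the 8 measured enzymes before squalene epoxidase included 6 called lower and 0 called higher from P18 to P75, and the 8 from squalene epoxidase onwards included 4 lower and 1 higher. From P75 to 6 months, where 60.6% of all genes were called, 31.2% higher and 29.4% lower, the early enzymes counted 4 lower and 0 higher and the late enzymes 5 higher and 0 lower. From P75 to 24 months, where 54.9% of all genes were called, 28.8% higher and 26.1% lower, the early enzymes counted 5 lower and 0 higher and the late enzymes 7 higher and 0 lower. Lss was the only late enzyme not called between these ages. From P18 to 24 months, where 69.0% of all genes were called, 34.7% higher and 34.3% lower, the early enzymes counted 7 lower and 0 higher and the late enzymes 4 higher and 1 lower. The median log2 change from P75 to 24 months was -0.27 for the early and 0.41 for the late enzymes, beside -0.004 for all genes. Fewer of the enzyme calls held with each library left out in turn. From P18 to P75 10 lower and 0 higher held, and from P75 to 6 months 2 lower and 4 higher. To 24 months, 4 lower and 6 higher held from P75, and 8 lower and 3 higher from P18.

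**Figure D3:**
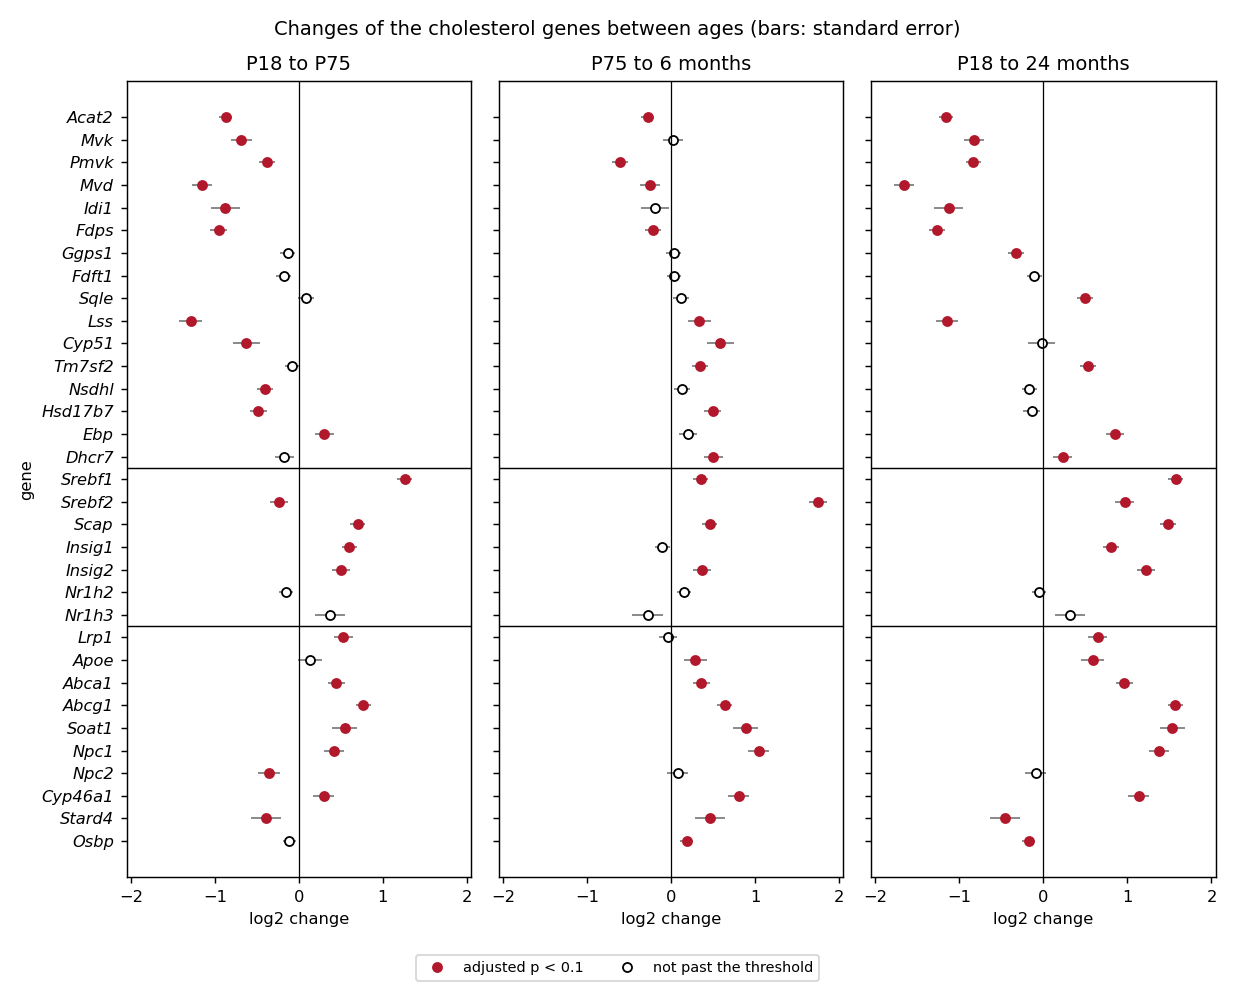
Log2 change with its standard error (x axis) of the 33 measured genes (y axis) in 3 comparisons, P18 to P75, P75 to 6 months and P18 to 24 months. Filled points passed an adjusted p of 0.1 and open points did not. From P75 to 6 months the points above Sqle lay at or below 0.03, and Sqle and the enzymes under it lay at 0.12 or more.

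Expressed per kilobase of merged exons, Fdps had the highest level of the measured enzymes at 6 months, with a normalized read count per kilobase of 1521 ± 96.0 (SD, n = 3), followed by Fdft1 at 923 ± 65.6 and Pmvk at 771 ± 92.1. Lss had the lowest, at 19.7 ± 3.19. The merged exons of Lss span 10787 bases, which lowers its value per kilobase if not all of them are used in myelin.

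Most oligodendrocyte markers fell from P18 to P75, as did most of the measured enzymes. Of 12 oligodendrocyte markers, 9 were called lower and 0 higher at P75, with a median log2 change of -1.12, and their summed normalized read count ranged from 2491975 to 6220163 at P18 and from 1290778 to 1861402 at P75. Of 8 markers of newly formed oligodendrocytes, 7 were lower and 1 was higher (log2 change 1.07). Their sum went the other way from most of these calls, with 32923 to 79407 at P18 and 81510 to 119647 at P75. The part of these cells in the change of the enzymes was not tested.

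Among the regulators, 5 of 7 changed from P18 to P75, 4 of them upwards, and from P75 to 6 months 4 of 7 rose and 0 fell. Over all genes 48.8% and 60.6% were called in these steps, 25.9% and 31.2% upwards. The median log2 change was 0.50 and 0.35. Over the whole span to 24 months 5 of 7 rose, with a median of 0.97, while 69.0% of all genes were called and 34.7% rose. The shares of regulators called in either direction thus lay near those of all genes in the last 2 of these comparisons. The 5 were Srebf1, Srebf2, Scap, Insig1 and Insig2, and the 2 liver X receptor genes were called in no comparison in the fit of all libraries.

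Srebf2, the SREBP gene best known for control of sterol synthesis, lies on chromosome 15 at 81977696 to 82035806 (plus strand). In the P18 libraries the normalized read count was 777, 912 and 718, followed by 768, 683 and 599 at P75, then 2469, 2287 and 2115 at 6 months and 1451, 1565 and 1672 at 24 months. All 6-month libraries lay above all others and all 24-month libraries lay above those of P18 and P75. From P75 to 6 months it rose 3.36-fold (log2 change 1.75 ± 0.11, SE, adjusted p = 2.3e-08), the largest change of any of the 33 genes in a consecutive step and, over all genes, ranking 186 of the 14634 genes tested by rise. It then fell by 0.55 to 24 months (adjusted p = 0.0037), and both calls held with each library left out in turn. From P18 to P75 its log2 change was -0.23 (adjusted p = 0.098), a call lost when any 1 of 10 libraries was left out, with -0.14 without P18 replicate 2 and -0.14 without P75 replicate 3. The microRNA gene Mir33 lies within Srebf2 but shares no exon with it.

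Srebf1, whose product also drives fatty acid synthesis, lies on chromosome 11 at 60012591 to 60036083 (minus strand). The 3 P18 libraries had normalized read counts of 478, 415 and 445, those of P75 had 1021, 1072 and 1108, those of 6 months 1358, 1410 and 1316 and those of 24 months 1449, 1232 and 1308. The lowest P75 library was above the highest P18 library by more than 2-fold, the 6-month libraries were above those of P75, and the 6-month and 24-month libraries overlapped. Srebf1 rose by 1.26 from P18 to P75 (adjusted p = 8.2e-08), again ranking 186 of the 14634 genes by rise in that step. From P75 to 6 months it rose by 0.35 (adjusted p = 0.0026). The larger step of Srebf1 thus came before P75 and that of Srebf2 after it, and the difference between the 2 genes was not tested.

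Scap, the escort of the SREBPs, lies on chromosome 9 at 110235792 to 110287450 (plus strand). Normalized read counts ran from 515, 551 and 614 at P18 through 813, 964 and 953 at P75, then 1213, 1212 and 1317 at 6 months, to 1562, 1475 and 1660 at 24 months. No pair of successive ages overlapped. Scap rose by 0.70 (adjusted p = 3e-05), 0.46 (adjusted p = 0.00066) and 0.33 (adjusted p = 0.024) in the 3 consecutive steps, and the last call was lost with the same total per library (0.29, adjusted p = 0.13). Of its exon bases, 18.9% are shared with 5830462I19Rik on the opposite strand, and whether the counting used strand was not given in the sources used here.

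Insig2 lies on chromosome 1 at 123200930 to 123229166 (minus strand). Its normalized read counts were 692, 765 and 632 at P18, 878, 988 and 1099 at P75, then 1370, 1123 and 1332 at 6 months and 1575, 1769 and 1526 at 24 months. Each age lay above the age before without overlap. It rose by 0.50 (adjusted p = 0.0014), 0.37 (adjusted p = 0.0085) and 0.35 (adjusted p = 0.032) in the 3 steps, and the call of the last step was lost without 6-month replicate 2 (0.26) or 24-month replicate 2 (0.29). Insig1, the related retention protein, averaged 1740 ± 71.0 at P18, 2650 ± 285 at P75, then 2459 ± 114 at 6 months and 3041 ± 263 at 24 months. It rose by 0.60 from P18 to P75 (adjusted p = 9.3e-05), was not called from P75 to 6 months (-0.10), and its rise of 0.30 from 6 to 24 months was lost without 24-month replicate 1 (0.25). Its call from P75 to 24 months (0.20) was lost without P75 replicate 1 or 2 (0.16 in each case) or 24-month replicate 1 (0.14) or 2 (0.19).

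**Figure D4:**
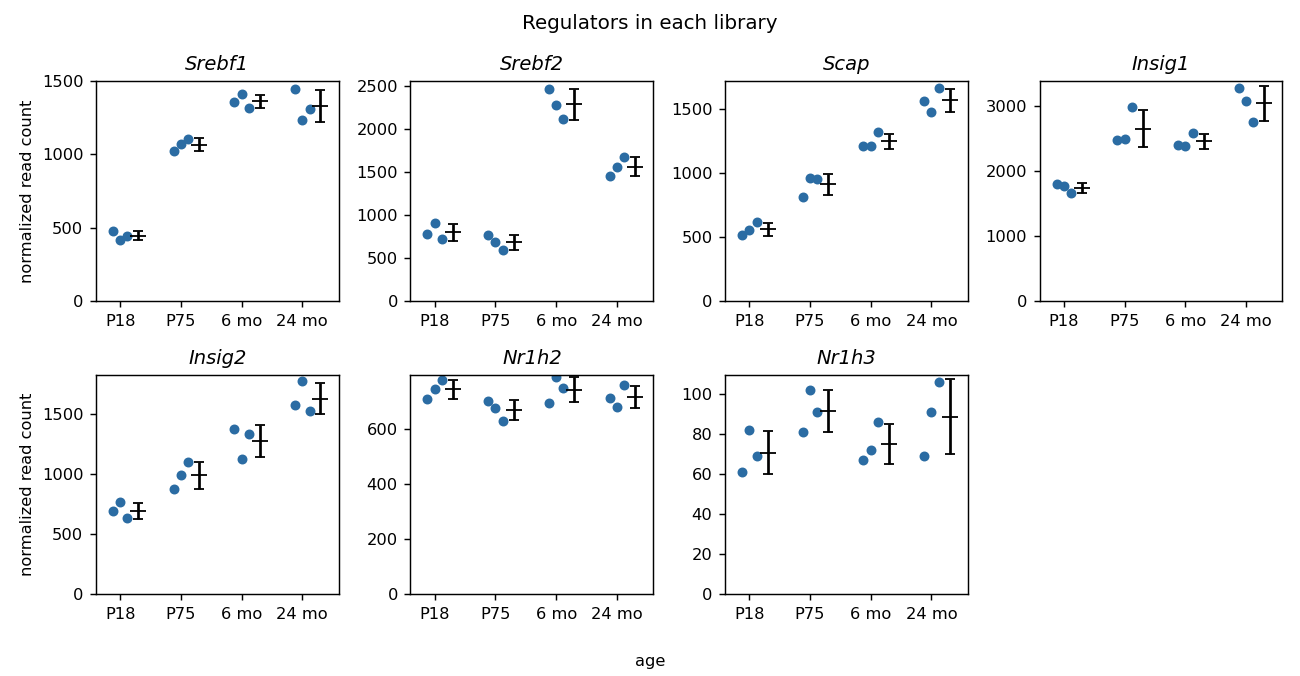
Normalized read counts (y axis, from 0) of the 7 regulators by age (x axis), with a point for each of 3 libraries and the mean with its SD. Srebf2 averaged 2290 at 6 months against 683 at P75, Scap and Insig2 stood higher at each successive age, and Nr1h2 and Nr1h3 overlapped between most ages.

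Nr1h2, the liver X receptor gene found in most tissues, averaged between 670 and 746 at the 4 ages. Its log2 change from P75 to 6 months was 0.15, which passed the threshold only without 6-month replicate 1 (0.20, adjusted p = 0.095). Nr1h3, the other receptor gene, averaged between 70.8 and 91.3, and the SE of its log2 change was 0.18, against 0.09 to 0.11 for the other regulators. Its log2 change from P18 to P75 was 0.37 (adjusted p = 0.11), and it passed the threshold without P18 replicate 2 (0.48), P75 replicate 1 (0.45) or 24-month replicate 1 (0.37). It also passed with the replicate block (adjusted p = 0.079) or the same total per library (0.49, adjusted p = 0.049). From P18 to 24 months its log2 change was 0.31, and it passed without P18 replicate 2 (0.43) or 24-month replicate 1 (0.48), with the replicate block (adjusted p = 0.097) or with the same total per library (0.39, adjusted p = 0.089). Per kilobase of merged exons at 6 months, Insig1 had the highest level of the regulators with 929 ± 43.2, followed by Srebf2 with 459 ± 35.5, and Nr1h3 had the lowest with 29.8 ± 3.77.

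Of the 10 transport and turnover genes, 6 rose and 2 fell from P18 to P75, and 8 rose and 0 fell from P75 to 6 months. Over all genes 25.9% rose and 22.9% fell in the first step and 31.2% rose and 29.4% fell in the second. Between P18 and 24 months 7 rose and 2 fell, beside 34.7% and 34.3% of all genes, and the median log2 change was 0.80. The export genes Abca1 and Abcg1, the storage enzyme Soat1, the lysosomal transporter Npc1 and the turnover enzyme Cyp46a1 rose in both steps up to 6 months. From 6 to 24 months, where 29.3% of all genes were called, 16.6% higher and 12.7% lower, 0 of the 10 rose and 2 fell.

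Abcg1, a transporter that moves cholesterol to lipoprotein particles, lies on chromosome 17 at 31194643 to 31252722 (plus strand). In the P18 libraries the normalized read count was 717, 731 and 816, followed by 1298, 1352 and 1203 at P75, then 2029, 2042 and 1909 at 6 months and 2061, 2208 and 2470 at 24 months. No pair of successive ages overlapped. It rose by 0.77 to P75 (adjusted p = 7.6e-06) and by a further 0.64 to 6 months (adjusted p = 2e-05), and the log2 change of 0.17 from 6 to 24 months was not called. Between P18 and 24 months it was 2.97-fold higher (log2 change 1.57, adjusted p = 6.2e-10).

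Npc1, which carries cholesterol out of lysosomes, lies on the minus strand of chromosome 18. The 3 P18 libraries had normalized read counts of 916, 792 and 653, those of P75 had 1060, 1000 and 1068, those of 6 months 2306, 2144 and 1997 and those of 24 months 1739, 2012 and 2358. The 6-month and 24-month libraries all lay above those of P75 and overlapped with each other. Npc1 rose by 0.42 to P75 (adjusted p = 0.011) and by 1.04 from P75 to 6 months (adjusted p = 4.3e-06), the largest rise of the transport genes in that step. Npc2, its soluble partner in the lysosome, averaged 3438 ± 758 at P18, 2641 ± 122 at P75, then 2796 ± 196 at 6 months and 3175 ± 109 at 24 months. The fall of Npc2 from P18 to P75 was 0.36 on the log2 scale with all libraries (log2 change -0.36, adjusted p = 0.032), -0.55 without P18 replicate 3, and no longer called without P18 replicate 1 (-0.28) or 2 (-0.24). Without P18 replicate 3 it was also called lower at 24 months than at P18 (-0.29, adjusted p = 0.0069), and its call from P75 to 24 months (0.27) was lost when any 1 of 7 libraries was left out (0.23 to 0.30).

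Soat1, which esterifies cholesterol for storage, lies on chromosome 1 at 158358239 to 158404459 (minus strand). Normalized read counts ran from 140, 130 and 96 at P18 through 164, 168 and 199 at P75, then 336, 306 and 339 at 6 months, to 298, 411 and 355 at 24 months. The libraries of P18 and P75 lay apart from each other and below all libraries of 6 and 24 months. Soat1 rose by 0.54 to P75 (adjusted p = 0.0076) and by 0.89 from P75 to 6 months (adjusted p = 0.00012). At 24 months it was 2.90-fold higher than at P18.

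Cyp46a1, the hydroxylase that turns cholesterol into an oxysterol able to leave the brain and that is known mainly from neurons, lies on chromosome 12 at 109572587 to 109600441 (plus strand). Its normalized read counts were 1062, 1287 and 1567 at P18, 1746, 1638 and 1395 at P75, then 2795, 2760 and 2749 at 6 months and 2548, 2777 and 3202 at 24 months. P18 and P75 overlapped, and every library of 6 and 24 months lay above both. It rose by 0.80 from P75 to 6 months (adjusted p = 6.3e-05). The call from P18 to P75 (0.30, adjusted p = 0.065) was lost without P18 replicate 1 (0.16) or 2 (0.30, adjusted p = 0.12) or P75 replicate 1 (0.23) or 2 (0.28).

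**Figure D5:**
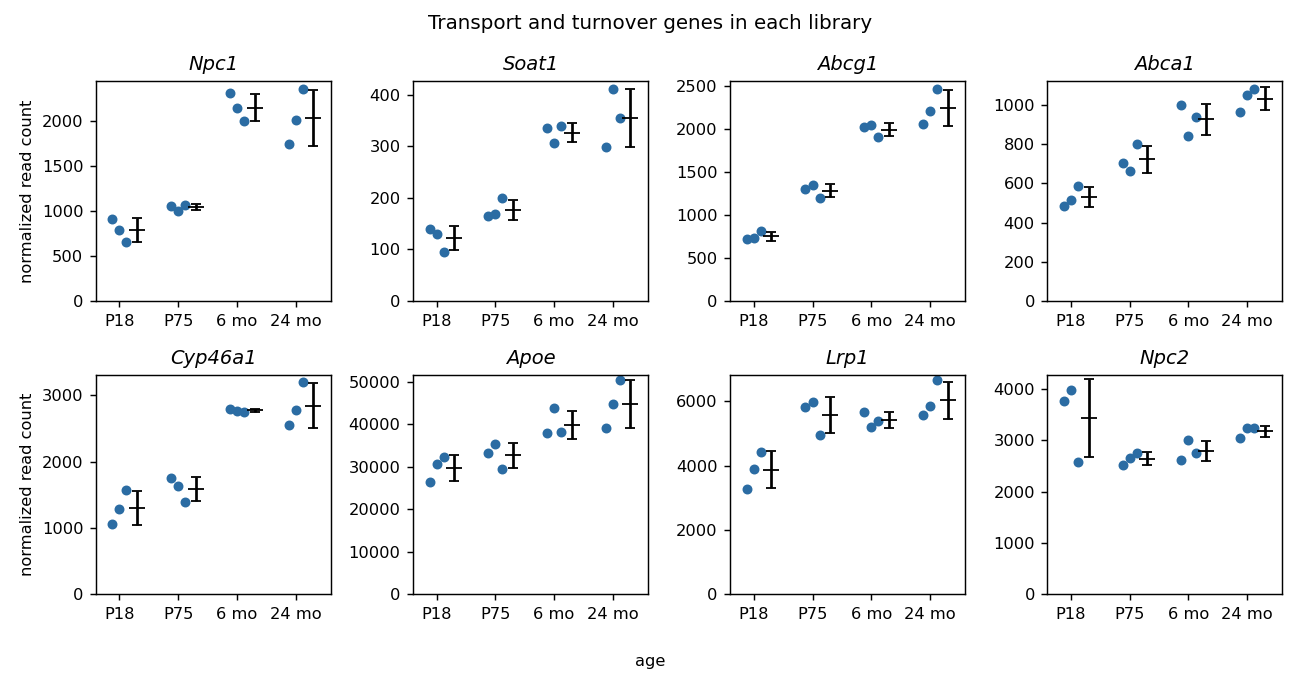
Normalized read counts (y axis, from 0) of 8 transport and turnover genes by age (x axis), with a point for each of 3 libraries and the mean with its SD. Npc1, Soat1, Abcg1 and Cyp46a1 stood higher at 6 months than at P75 in every library, and Npc2 was low in P18 replicate 3.

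Abca1, which loads cholesterol onto apolipoproteins, rose by 0.45 to P75 (adjusted p = 0.002) and by 0.36 from P75 to 6 months (adjusted p = 0.0065), with means of 529 ± 51.7, 722 ± 69.1, 926 ± 79.0 and 1031 ± 59.4 in order of age. Apoe, the main apolipoprotein of the brain, averaged 29802 ± 3063 at P18, 32691 ± 2938 at P75, then 39922 ± 3291 at 6 months and 44766 ± 5695 at 24 months. It was 0.58 higher at 24 months than at P18 (adjusted p = 0.0016), and its call from P75 to 6 months (0.29, adjusted p = 0.091) was lost when any 1 of 5 libraries was left out (0.22 to 0.32). Lrp1, a receptor for particles that carry Apoe, averaged 3875 ± 567 at P18 and between 5417 and 6030 at the later ages. It rose between P18 and P75 (0.53, adjusted p = 0.0013). Per kilobase of merged exons, Apoe at 6 months had a level of 20163 ± 1662, against 1306 ± 11.3 for Cyp46a1, the next highest transport gene.

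The transport proteins Osbp and Stard4, which pass sterol between membranes, changed little or at low counts. Osbp averaged 1368 ± 9.11 at P18, 1264 ± 14.4 at P75, then 1438 ± 51.2 at 6 months and 1213 ± 85.4 at 24 months. Its rise of 0.18 from P75 to 6 months was lost without P75 replicate 2 (0.18, adjusted p = 0.11) or 6-month replicate 1 (0.16), and its fall from 6 to 24 months (-0.25) without 6-month replicate 1 (-0.22) or 24-month replicate 2 (-0.20). Its call from P18 to 24 months (-0.18) was lost without P18 replicate 1 (-0.17) or 24-month replicate 2 (-0.13) or 3 (-0.16). Stard4 averaged between 83.1 and 121 at the 4 ages. From P18 to P75 its log2 change was -0.39 with all libraries, -0.63 without P18 replicate 3 and -0.25 without P18 replicate 1, and the call was lost when any 1 of 7 libraries was left out. It rose by 0.47 from P75 to 6 months, a call lost without P75 replicate 2 (0.40) or 6-month replicate 1 (0.41), and its fall of 0.53 to 24 months (log2 change -0.53) was lost without 6-month replicate 1 (-0.48) or 2 (-0.54) or 24-month replicate 2 (-0.55) or 3 (-0.48). Over the whole span to 24 months its log2 change was -0.46, -0.70 without P18 replicate 3, and not called without P18 replicate 1 (-0.32) or 2 (-0.37).

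In the latest step, from 6 to 24 months, 10 of 33 genes were called, a share near the 29.3% of all genes, and 2 of these calls, the rise of Scap and the fall of Srebf2, held with each library left out in turn. Sqle (0.29), Tm7sf2 (0.27) and Ebp (0.34) were called higher and Ggps1 (-0.22) lower among the enzymes. The call of Sqle was lost without 6-month replicate 2 (0.27), 24-month replicate 1 (0.30) or 24-month replicate 2 (0.27), and that of Tm7sf2 without 6-month replicate 1 (0.23) or 24-month replicate 1 (0.27), 2 (0.26) or 3 (0.27). Ebp was lost without 24-month replicate 3 (0.23) or 6-month replicate 2 (0.33), and Ggps1 when any 1 of 9 libraries was left out (-0.26 to -0.19). Mvd passed the threshold without P18 replicate 3 or P75 replicate 3 (-0.26 in each case), Lss without 6-month replicate 3 (-0.34) and Npc2 without P18 replicate 3 (0.18). Without single libraries the count ranged from 4 (24-month replicate 2) to 12 (P18 replicate 3), with 5 without 6-month replicate 2 and 6 without 6-month replicate 1, 24-month replicate 1 or 24-month replicate 3. The share of all genes called moved with it, to 17.0% without 24-month replicate 2 and 36.4% without P18 replicate 3. With the libraries scaled to the same total it was 4, 1 higher and 3 lower, and over all genes 46.3% of the calls were then higher, against 56.8% with the deposited scaling.

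In the other comparisons the counts moved by less than 1.5 times. Of the 24 calls from P18 to P75, 19 held with each library left out in turn, as did 15 of 21 from P75 to 6 months, 20 of 24 from P75 to 24 months and 23 of 26 from P18 to 24 months. With all libraries scaled to the same total, the median log2 change of all genes from P18 to P75 moved from 0.015 to 0.139 and the share of higher calls over all genes from 53.0% to 72.2%. The calls of the 33 genes in that step were then 12 higher and 10 lower, against 11 and 13. Libraries of the groups compared did not overlap for 21 of 33 genes from P18 to P75 (47.7% of all genes), for 20 from P75 to 6 months (63.1%), for 15 from 6 to 24 months (43.5%), for 22 from P75 to 24 months (57.5%) and for 25 from P18 to 24 months (66.6%).

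Most microglia and choroid plexus markers rose in both steps up to 6 months, as did most transport genes. Most neuron markers rose from P75 to 6 months but not from P18 to P75. Astrocyte and endothelial markers were mixed or mostly not called. Of 13 microglia markers, 9 rose and 0 fell from P18 to P75, and 7 rose and 2 fell from P75 to 6 months. Their summed normalized read count was 7001 to 7930 at P18, 9886 to 10940 at P75, then 11487 to 12902 at 6 months and 17551 to 21599 at 24 months. From 6 to 24 months 8 of them rose and 0 fell, beside 16.6% and 12.7% of all genes. In that step 3 of 7 regulators rose and 1 fell, and 0 of 10 transport genes rose and 2 fell. With each library left out in turn, 1 rise and 1 fall of the regulators held, and 0 calls of the transport genes. The median log2 change was 0.23 for the regulators and 0.13 for the transport genes, beside 0.028 for all genes. Of 5 choroid plexus markers, 4 rose and 0 fell in each of the first steps, with sums of 12580 to 14675 at P18, 23493 to 28906 at P75, then 27490 to 31870 at 6 months and 42695 to 47351 at 24 months. Of 13 neuron markers, 5 rose and 5 fell from P18 to P75, and 9 rose and 2 fell from P75 to 6 months. Across the P75 libraries the neuron sum lay between 202309 and 228568, and across the 6-month libraries between 197778 and 204668. The mean log2 level of these markers rose instead, without overlap, from 12.24 ± 0.08 (SD, n = 3) to 12.69 ± 0.06. Their median log2 change in this step was 0.43. Astrocyte markers gave 3 higher and 1 lower of 11 from P75 to 6 months, and endothelial markers 2 higher and 1 lower of 6. The part of these cells in the rise of the regulators and transport genes was not tested.

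Further genes of the same pathway were read from lists that exclude the 34. Changes of at least 2-fold are named, beside shares over all genes of 2.82% higher and 1.73% lower for P18 to P75, 5.30% and 4.0% for P75 to 6 months, 1.22% and 0.465% for 6 to 24 months, 5.10% and 0.943% for P75 to 24 months, and 14.5% and 3.98% for P18 to 24 months. Counts that follow are of calls at the adjusted p alone and are read against the shares of all genes already given for it. Of 5 other tested synthesis genes, 1 rose and 1 fell from P18 to P75, and 4 rose and 1 fell from P75 to 6 months, with log2 changes between -0.27 and 0.74 in the later step. None of these 5 changed by 2-fold in any of the 5 comparisons.

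Of 13 other regulators, 9 rose and 3 fell from P18 to 24 months, where 34.7% of all genes rose and 34.3% fell. The protease gene Mbtps2 (1.20), which takes part in SREBP cleavage, the membrane protein genes Erlin1 (1.63) and Erlin2 (1.35), the ubiquitin ligase gene Rnf139 (1.41), and the oxysterol enzyme genes Cyp27a1 (1.28), Cyp7b1 (1.60) and Ch25h (1.88) rose by more than 2-fold. Ch25h rested on few reads, with counts of 5, 2 and 14 at P18 and 30, 24 and 18 at 24 months, and it was also past 2-fold from P75 (1.54) and from 6 months (1.63) to 24 months. Of 27 other transport genes, 17 rose and 3 fell from P18 to 24 months, so that the share called in either direction lay near the 69.0% of all genes.

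Among those, the receptor-related genes Vldlr (1.07), Lrpap1 (1.37), Scarb2 (1.11) and Sorl1 (1.12), the exporters Abca7 (1.29) and Abcg4 (1.05), the lysosomal lipase gene Lipa (1.03), the ester hydrolase gene Nceh1 (1.63), Stard3 (1.10) and the lipid transfer gene Pltp (1.36) rose by more than 2-fold. Apoa1 fell by 1.53, with counts of 24, 19 and 26 at P18 and 8, 9 and 6 at 24 months. From P75 to 6 months 18 of the 27 rose and 4 fell (31.2% and 29.4% of all genes), among them Osbpl1a (1.14), Scarb2 (1.15), Gramd1b (1.06) and Pltp (1.37) upwards and Apoa1 (-1.65) and Gramd1c (-1.04) downwards by more than 2-fold. From P75 to 24 months 18 rose and 2 fell (28.8% and 26.1% of all genes), with Nceh1 (1.05), Pltp (1.0) and Apoa1 (-1.62) past 2-fold.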

How the data were processed

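Light-weight myelin membranes were purified from mouse brains, and RNA was sequenced in 12 libraries, 3 at each of 4 ages. The authors aligned reads to mm9 with TopHat2 (2.0.8 in the submitters' processing notes, another version in the study's methods), counted them on genes with HTSeq 0.5.4p1 and scaled each library by its DESeq size factor, so the deposited signal is a normalized read count per gene (21937 genes, 3103 at 0 in every library). Multi-mapped reads could not be revisited. Within a library, values up to 3000 were checked as multiples of the worth of 1 read, and 100% of them came out whole (tolerance 0.1 read). In 3 libraries that worth lies within 0.01 of 1. It was estimated in the same way in all libraries, and a check on values of 50 to 3000 alone also gave 100% in each. Recovered depth was 20299052 to 27214385 reads. Groups came from the age stated for each sample, and titles and descriptions linked the columns to the samples.

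Ages were compared with limma 3.58.1 (R 4.3.3, trend) on log2(value + 1) for the 14634 genes averaging 10 or more. A single fit held all libraries, with age alone and Benjamini-Hochberg adjustment at 0.1. The pipeline was tested on simulated data. The 5 comparisons left out P18 against 6 months. An exact permutation test of 3 against 3 cannot go below 0.1. The settings tried were pseudocounts of 0.5 and 10, a filter at a mean over 100 or none, the 2 ages compared alone, a replicate block, the same total, quantile normalization, edgeR 4.0.16 and DESeq2 1.42.0 on recovered reads, a rate of 0.05 and each library left out. Same-numbered libraries deviated together only between P75 and 6 months (correlations 0.161, 0.101 and 0.187), though different ages come from different mice, and the replicate block changed no count there (21 with and without it).

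Members, lists and the rule for named genes were chosen with earlier results of these data known. All members are named. Values per library are given for the 3 members of each role with the largest called change, for every called change of at least 2-fold, and, after values were seen, for Cyp51. Other pathway genes are named where called with 2-fold. Some pathway genes are not reported here and were left out of these lists. Positions and exon lengths are from GENCODE on NCBIM37, copies from minimap2 2.31, promoters from RefSeq.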

Additional observations from a re-analysis of the deposited data

How the results depend on the processing

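No member changed direction in a called comparison under any alternative. The count of called genes moved by over 1.5 times only from 6 to 24 months: 10 with all libraries and the deposited scaling, 4 (1 higher, 3 lower) with the same total per library, and 4 to 12 with single libraries left out. The cause was not tested. Leaving out single libraries gave 20 to 26 calls from P18 to P75 (24 with all), 17 to 22 from P75 to 6 months (21), 20 to 25 from P75 to 24 months (24) and 24 to 28 from P18 to 24 months (26). Apart from these, 20 of 24, 17 of 21, 4 of 10, 20 of 24 and 24 of 26 calls held under every other alternative in the comparisons P18 to P75, P75 to 6 months, 6 to 24 months, P75 to 24 months and P18 to 24 months. edgeR called 25, 21, 9, 23 and 26 genes and DESeq2 23, 21, 9, 23 and 26, in that order. With the replicate block the counts were 25, 21, 9, 22 and 26. In a block fit of P75 and 6 months alone, added after seeing the data, the count was 22. Outside that pair of ages, correlations of same-numbered libraries ranged from -0.213 to 0.029, so the numbers do not pair those libraries. Groups of 3 limit the precision, and low counts limit Nr1h3, Stard4 and Ch25h.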

Other observations

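The mean log2 level of the 12 oligodendrocyte markers was 14.31 ± 0.42 (SD, n = 3) at P18 and 13.31 ± 0.03 at 24 months. The mean log2 level of the 16 measured synthesis genes minus that of the 12 oligodendrocyte markers was -4.26 ± 0.27 at P18, -3.79 ± 0.14 at P75, then -3.91 ± 0.12 at 6 months and -3.67 ± 0.03 at 24 months. Without subtraction of the markers, the mean log2 level of the synthesis genes was 10.06 ± 0.15 at P18 and 9.64 ± 0.02 at 24 months. On that plain scale the log2 change over this span was -1.66 for Mvd and -1.26 for Fdps, while 4 of the 16 enzymes were called higher. For the 7 regulators the difference from the marker mean was -5.25 ± 0.39, -3.85 ± 0.12, -3.66 ± 0.19 and -3.34 ± 0.07 in order of age. For the 10 transport genes this difference was -4.19 ± 0.37, -3.00 ± 0.10, -2.73 ± 0.16 and -2.48 ± 0.12. These are descriptions of differences between mean log2 levels in the same libraries, chosen after the values were seen, and no test was made on them. They were not repeated without P18 replicate 3.

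The 2 genes whose products act as a pair in lysosomal cholesterol release had unlike profiles. At 6 months the mean normalized read count of Npc1 was 2149 ± 154 (SD, n = 3) and that of Npc2 2796 ± 196, whereas at P18 the means were 787 ± 132 and 3438 ± 758. The difference between the changes of these genes was not tested.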
